A study of Homo sapiens with 7 samples.

Results

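Interferon response and nucleic acid sensing genes are the genes with which a cell recognises foreign or misplaced RNA and DNA and answers it. The 37 genes described here were taken by symbol from the annotation of a human expression array, out of 36337 gene names, and all 37 were found, on 56 probes and 65 spots per array. By role they were 6 sensors and adaptors, 5 transcription factors and 26 effectors. The effectors were further divided into 9 genes that act on RNA and translation, 7 that act at membranes or on virus particles, 4 that belong to the ISG15 and ubiquitin system and 6 others.

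The study examined the transcription profiles of aneuploid human cells and set them beside those of diploid cells under stress, bafilomycin A1 being one of the stress conditions. The cells were HCT116 H2B-GFP, a human colon carcinoma line, labelled diploid, that carries histone H2B fused to green fluorescent protein. Bafilomycin A1 blocks the V-ATPase, the proton pump of lysosomes and endosomes, and thereby inhibits autophagy. All 4 samples with values were treated with 10 nM bafilomycin A1 for 30 h and grown in DMEM with 10% fetal bovine serum, and each was hybridised as Cy3-labelled RNA to its own one-colour array. The 3 untreated samples of the same line were not analysed here, so no treatment effect was computed, and the values below describe levels and spread within the treated group alone. The labels do not say whether the 4 samples came from separate cultures. The study's methods give independent biological replicates for its statistically evaluated experiments without naming these arrays, so the spread between the 4 may be biological, technical or both.

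Sensors such as RIG-I and MDA5 bind viral RNA in the cytosol and signal through the adaptor MAVS, STING relays the signal of cytosolic DNA, and TLR3 binds double-stranded RNA in endosomes. These routes activate IRF3 and IRF7, which switch on interferon genes, and secreted interferon then acts through its receptors, JAK kinases and a transcription factor complex that holds STAT2 and IRF9. That complex binds the interferon-stimulated response element (ISRE) in the promoters of the effector genes, whose products degrade RNA, stop translation, trap virus particles or block membrane fusion.

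Most of these genes gave signal in the treated cells. The scanner software flags spots that are well above background, and a gene counted as detected when it had a probe with this flag on each of the 4 arrays. By this rule 33 of the 37 genes were detected (89.2%), against 54.2% of all gene names. All 6 sensors and adaptors and all 5 transcription factors were detected. Of the effectors, 22 of 26 were detected (84.6%), and the 4 that were not were OAS1, RSAD2, IFI44 and IFI44L. The last 3 of these, 8.11% of the 37 genes, were well above background on no array by any probe, against 35.2% of all gene names. With the flag for positive and significant signals in place of the flag for well above background, 35 genes were detected, the gain being OAS1 and IFI44.

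Values are log2 background-subtracted signals from which the array median was taken off, and a gene with several probes is given by their median. Levels of different probes depend on their sequence, so levels were read between arrays and not between genes. Between 55.6% and 60.4% of the non-control spots of an array were well above background, and the dimmest probe so called had a signal of 19.2 to 22.3 units, which sets the limit of what could be detected. The 4 arrays lay on 1 slide and were read in 1 scan. Replicate 3 stood apart in its spots with an outlying local background, 1916 against 118 to 459 on the other arrays. Of the spots of the 37 genes, 3 on replicate 3 had this mark, 1 each of IFI27, IFITM2 and ISG15. They were kept, since the background subtracted from 99.986% of the spots equalled the fitted surface of the array to within 0.5 units and not the local background of the spot. Leaving them out, an alternative chosen after seeing the data, left 30 genes detected and 3 fewer effectors. IFI27, IFITM2 and ISG15 each have 1 probe printed as 1 spot. Without that spot no call on replicate 3 was possible, so their loss followed from the rule and not from their signal.

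Promoter windows of many of the effectors hold the letters of the ISRE, and the stretches below show them in genes that were detected and in genes that were not. In RefSeq windows of 300 bases (250 before and 50 from the start of the gene on, GRCh38.p14), the ISRE core was searched on both strands as GAAA, any 2 bases and GAAA, and the core of the interferon-gamma activated site (GAS) as TTC, any 3 bases and GAA, which reads alike on both strands. A window was held for 28 of the 37 genes, after matching DDX58 to RIGI through its older symbol. TMEM173, IRF3, IRF7, IFIT2, OAS2, OASL, IFITM2, MX2 and USP18 had none in the table. The ISRE letters occurred in 19 of the 28 genes (67.9%), against 4.38% of the 27305 genes of the table, and in 23 of their 35 windows, against 3.57% of all 35116 windows. By role they occurred in 3 of 5 sensors and adaptors, in none of 3 transcription factors and in 16 of 20 effectors. GAS letters occurred in 9 of the 28 genes (32.1%), against 9.38% of all genes, and in 5 windows the GAS letters shared bases with ISRE letters. The 2 windows of IFI27 overlap and hold the same letters, as do the 2 windows of IFI44. Counts of windows thus include some sites more than once. Of the 24 detected genes with a window, 16 held ISRE letters, and of the 4 undetected genes 3 did. The genes were chosen as interferon response genes, whose effectors are known to be switched on through the ISRE. A higher share of ISRE letters than among all genes thus follows at least in part from that choice. A match of letters is a description and not evidence of binding. Capitals mark the ISRE letters on either strand, and each stretch is written 5′ to 3′ along the gene and ends before its start.
ISG15 (chr1:1013369-1013414, plus strand): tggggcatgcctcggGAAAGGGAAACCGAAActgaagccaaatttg
IFITM3 (chr11:320871-320927, minus strand): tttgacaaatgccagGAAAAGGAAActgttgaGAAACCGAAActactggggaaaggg
ISG20 (chr15:88638932-88638971, plus strand): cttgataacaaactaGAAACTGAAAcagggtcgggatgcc
IFIT1 (chr10:89392492-89392544, plus strand): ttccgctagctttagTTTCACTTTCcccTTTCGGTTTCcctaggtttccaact
IFIT3 (chr10:89327826-89327899, plus strand): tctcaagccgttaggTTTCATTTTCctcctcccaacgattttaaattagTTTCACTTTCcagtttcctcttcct
MX1 (chr21:41431839-41431878, plus strand): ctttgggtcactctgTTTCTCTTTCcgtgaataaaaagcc
IFI44 (chr1:78649756-78649788, plus strand): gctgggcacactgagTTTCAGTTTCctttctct
IFI44L (chr1:78620360-78620399, plus strand): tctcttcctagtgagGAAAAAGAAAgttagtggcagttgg
RSAD2 (chr2:6877617-6877656, plus strand): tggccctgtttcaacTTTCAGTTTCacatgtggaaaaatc

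ISG15 and IFITM3 each held 2 copies within the stretch shown, and the copies of ISG15 overlap. IFIT1 and IFIT3, both on chromosome 10 by their probes, carried the letters on the opposite strand, where they read as their reverse complement. IFI44, IFI44L and RSAD2 held the letters although none of them was well above background on any array. The stretches of IFIT3, MX1, IFI44 and RSAD2 each come from 1 of several windows of the gene. Window 1 of RSAD2 and window 2 of MX1 held no ISRE letters. The promoter window of OAS1 held GAS letters and no ISRE letters.

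**Figure D1:**
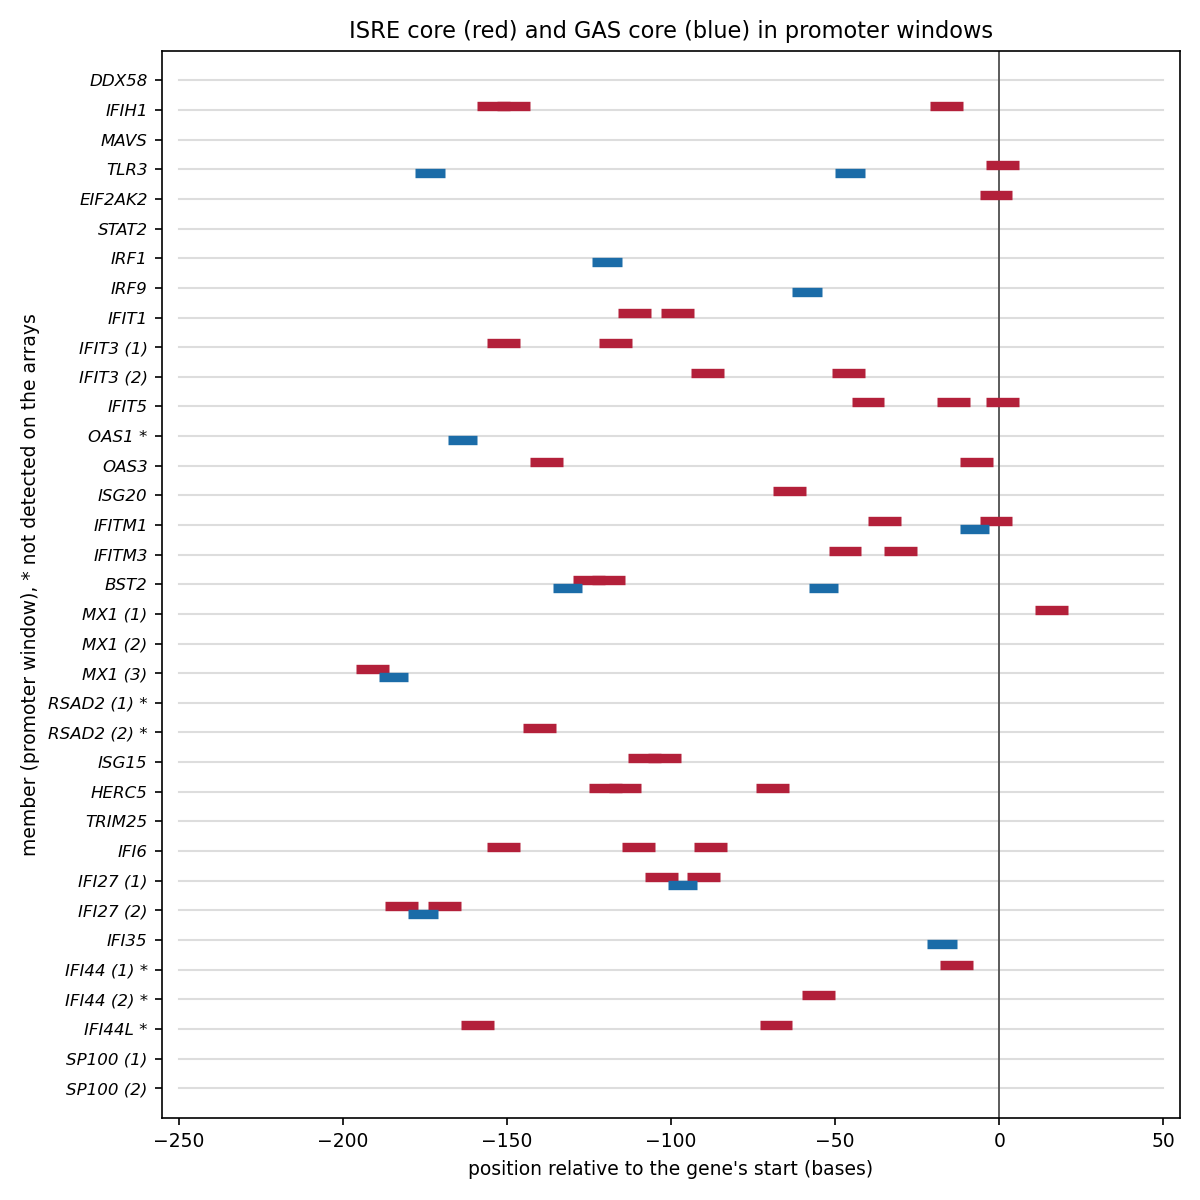
Positions of the ISRE core (red) and the GAS core (blue) in the 35 RefSeq promoter windows of 28 of the genes, with distance from the start of the gene in bases on the x axis and 1 line per window on the y axis. Asterisks mark genes not detected on the arrays. The 23 windows with ISRE letters include windows of IFI44, IFI44L and RSAD2.

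Of the sensors and adaptors, those of the cytosolic RNA route were detected by every probe they have. DDX58, which encodes RIG-I, lay at 2.49, 2.54, 2.99 and 2.32 on replicates 1 to 4, a mean of 2.59 ± 0.29 (SD, n = 4), with replicate 3 highest. IFIH1, which encodes MDA5, lay at 2.51, 2.84, 2.93 and 2.51, with a mean of 2.70 ± 0.22. MAVS, the mitochondrial adaptor of both sensors, lay at 4.64, 4.63, 5.00 and 4.60 (4.72 ± 0.19), and replicate 3 was apart from 3 nearly equal arrays. Its 7 probes on chromosome 20, between 3835323 and 3856770 of GRCh37, were all well above background on all 4 arrays. They did not order the arrays alike. Replicate 3 was the highest for 5 of them and the lowest for A_33_P3272527, which gave 2.87, 2.77, 2.72 and 2.93 and whose target is the transcript NM_001206491. Several of the 7 overlap in the genome, so they are not 7 separate measurements.

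TMEM173, which encodes the DNA-signal adaptor STING, lay at 6.25, 6.29, 6.41 and 6.12 (6.26 ± 0.12) and had the smallest SD of the 33 detected genes. TLR3, the endosomal sensor of double-stranded RNA, lay at 0.15, 0.49, 0.83 and 0.14 (0.40 ± 0.33). Its signal was 3.13 to 6.51 times that of the dimmest probe called well above background, so it lay close to the limit of detection. Replicates 1 and 4 of TLR3 were nearly equal and replicate 3 was the highest. EIF2AK2, which encodes PKR, the kinase that stops translation upon binding double-stranded RNA, lay at 2.96, 3.40, 2.98 and 2.85 (3.05 ± 0.24). It was the only gene of the 6 sensors and adaptors whose highest array was not replicate 3 but replicate 2. Both EIF2AK2 probes had replicate 2 highest. A_23_P142750 spans 5495 bases of chromosome 2, so its 60 bases cross a junction between exons, and gave 5.05, 5.45, 5.27 and 5.00, while A_33_P3224858 gave 0.87, 1.35, 0.70 and 0.70.

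Of the 5 transcription factors, STAT2, IRF3 and IRF7 spanned the least between the arrays. STAT2, the STAT protein particular to the interferon complex, lay at 6.0, 6.03, 6.19 and 5.90 (6.03 ± 0.12). IRF3, which is present before infection and is activated by phosphorylation, lay at 4.55, 4.41, 4.57 and 4.28 (4.45 ± 0.13), and its 2 probes both had replicate 3 highest. IRF7, the interferon-inducible partner of IRF3, lay at 5.07, 5.26, 5.31 and 5.01 (5.16 ± 0.15). For these 3 genes the 4 arrays spanned 1.22-fold, 1.22-fold and 1.23-fold. IRF1, a factor induced by interferon-gamma through the GAS element, lay at 2.08, 2.24, 1.67 and 1.84 (1.96 ± 0.25) and was lowest on replicate 3, where the other 4 factors were highest. IRF9, the DNA-binding partner of STAT2, lay at 2.52, 2.61, 3.24 and 2.46 (2.71 ± 0.36) and spanned 1.71-fold, the largest span of the 5. Replicate 3 carried that span, since the other 3 arrays lay between 2.46 and 2.61.

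The effectors that act on RNA and translation were detected in 8 of 9 cases. The 4 IFIT genes, whose proteins bind viral RNA and hold back its translation, lie within 113 kb on chromosome 10 by their probes (91066613 to 91179618). IFIT1 lay at 2.09, 2.06, 2.70 and 2.07 (2.23 ± 0.32), with 3 arrays nearly equal and replicate 3 above them. IFIT5 lay at 3.34, 3.54, 3.90 and 3.38 (3.54 ± 0.25), also with replicate 3 highest. IFIT3 lay at -0.25, 0.03, -0.39 and -0.49 (-0.27 ± 0.22), with a signal 2.03 to 3.34 times that of the dimmest probe called well above background. IFIT2 lay at -0.57, -0.44, 0.17 and -0.28 (-0.28 ± 0.32) as the median of 2 probes of which only 1 was detected. Its probe A_23_P24004 was well above background on all 4 arrays and gave 1.11, 1.01, 1.53 and 1.25, whereas A_24_P304071, 1.78 kb away, was so on replicate 3 alone and gave -2.24, -1.89, -1.19 and -1.80. Both probes had replicate 3 highest.

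The oligoadenylate synthetases make the second messenger that activates RNase L, which cuts RNA. OAS1, OAS2 and OAS3 lie within 94.2 kb on chromosome 12 by their probes. The single OAS1 probe was well above background on replicate 2 only, where it lay at -0.80, against -3.45, -2.92 and -3.80 on replicates 1, 3 and 4. Its signal on replicate 2 was 1.87 times that of the dimmest probe called well above background. OAS2 lay at -0.36, -0.71, -0.51 and -0.38 (-0.49 ± 0.16), with 2 of its 3 probes detected and A_23_P204087 well above background on replicate 1 alone. OAS3 lay at -0.24, 0.06, -0.39 and -0.37 (-0.23 ± 0.21) as the median of 2 probes that disagreed. A_24_P335305 was detected and gave 1.87, 2.07, 1.88 and 1.88 (1.92 ± 0.10), while A_33_P3402489, 4.23 kb upstream, was well above background on no array and gave -2.34, -1.94, -2.66 and -2.62. The level of OAS3 was thus 1.92 from the detected probe and -0.23 from the median of both, a difference of probes and not of arrays. OASL, a related protein without synthetase activity that enhances RIG-I signalling, lay at 1.44, 1.64, 1.85 and 1.32 (1.57 ± 0.23). ISG20, an exonuclease of single-stranded RNA, lay at 7.68, 7.91, 7.86 and 7.64 (7.77 ± 0.13), with all 4 arrays within 1.21-fold.

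The middle 30 bases of the OAS1 probe and of both probes of OAS3, IFIT2 and MX2, where 1 probe was detected and the other was not, are given 5′ to 3′ as the files hold them, at positions 16 to 45 of each 60-base probe, with GRCh37 coordinates. The probes of OAS3, IFIT2 and MX2 lie at separate places in their gene, and those of MX2 are annotated to different transcripts.
OAS1 A_23_P64828 (chr12:113354476-113354505, plus strand): acaaagtattatgactttaaaaaccccatt
OAS3 A_24_P335305 (chr12:113410146-113410175, plus strand): accctggtgttggcatattggccccactgt
OAS3 A_33_P3402489 (chr12:113405917-113405946, plus strand): caactacaacgccaaggacaagactgttgg
IFIT2 A_23_P24004 (chr10:91068412-91068441, plus strand): agccacactctgggttggaaaatgtttgcc
IFIT2 A_24_P304071 (chr10:91066628-91066657, plus strand): aatgtatgggaaaagaaagttactggaact
MX2 A_23_P6263 (chr21:42780516-42780545, plus strand): tcttttgtatgtccagtctcctgcacagca
MX2 A_33_P3278200 (chr21:42735934-42735963, plus strand): ttcctcatctgcaggacaggctctcttgag

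The deposited annotation does not say in which exon or untranslated region a probe lies, and no GRCh37 gene models were used here. The OAS1 probe and the undetected OAS3 probe A_33_P3402489 were the second most alike of 1504 pairs of probes from different genes of the group, with 33 identical bases of 55 aligned.

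**Figure D2:**
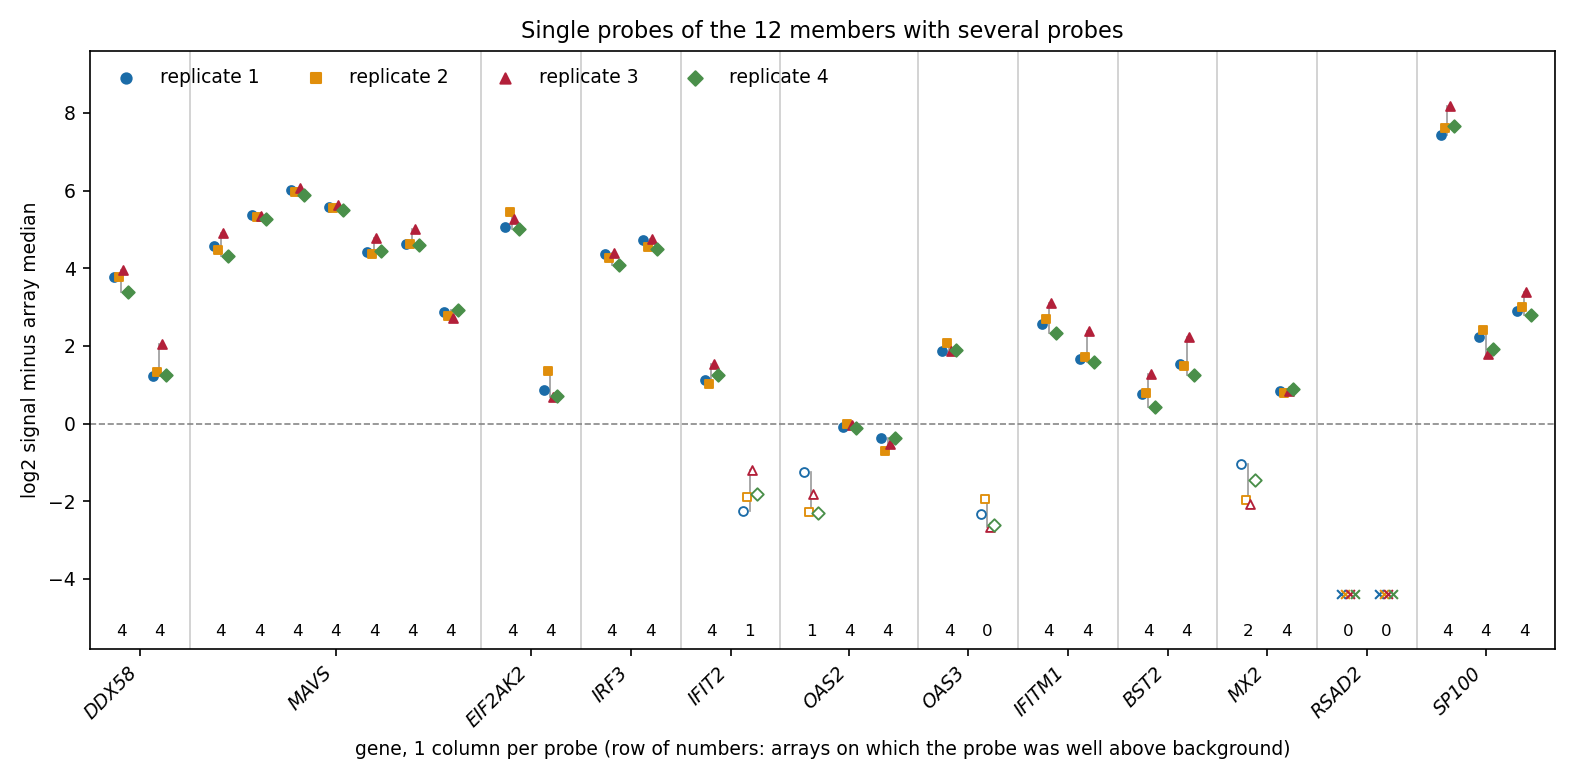
Normalized log2 signal (y axis: log2 signal minus the array median) of each probe of the 12 genes with several probes, 1 column per probe and 1 symbol per array. Filled symbols mark probes well above background on all 4 arrays, the numbers below give the number of such arrays, and crosses stand for signals at or below 0. In IFIT2, OAS2, OAS3 and MX2 at least 1 probe was detected and another was not.

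Of the effectors at membranes and virus particles, 6 of 7 were detected. All 6 spanned more than 1.4-fold between the arrays, as did 45.6% of all detected genes, and MX2 did so through its dimmer probe alone, its detected probe spanning 1.06-fold. The IFITM proteins block the fusion of enveloped viruses with endosomal membranes, and their 3 genes lie within 10.8 kb on chromosome 11 by their probes (309109 to 319914). IFITM1 lay at 2.10, 2.19, 2.74 and 1.96 (2.25 ± 0.34). IFITM2 lay at 8.50, 8.43, 9.01 and 8.48 (8.60 ± 0.27) and IFITM3 at 8.70, 8.73, 9.25 and 8.80 (8.87 ± 0.26). All 3 were highest on replicate 3, and in IFITM2 and IFITM3 the other 3 arrays lay within 0.10 of each other. The probes of IFITM2 and IFITM3 were the most alike of all pairs of different genes, with 34 identical bases of 40 aligned, so their signals may not be fully separate. The stretches of 30 bases that align best differ at 2 positions, given in capitals.
IFITM2 A_24_P287043 (chr11:309110-309139, plus strand): tcatgaccattctgctcGtcAtcatcccag
IFITM3 A_23_P87545 (chr11:319864-319893, minus strand): tcatgaccattctgctcAtcGtcatcccag

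BST2, also called tetherin, which holds budding virus particles at the cell surface, lay at 1.16, 1.13, 1.76 and 0.84 (1.22 ± 0.38). Its SD was the largest of the 33 detected genes, and both of its probes had replicate 3 highest and replicate 4 lowest. MX1, a dynamin-like protein that blocks viral ribonucleoproteins, lay at -0.56, -0.08, -0.21 and -0.83 (-0.42 ± 0.34), with a signal 1.60 to 3.17 times that of the dimmest probe called well above background. MX2, a related protein known for its action against retroviruses, lay at -0.10, -0.59, -0.62 and -0.28 (-0.40 ± 0.25). The detected MX2 probe A_33_P3278200 gave 0.84, 0.80, 0.83 and 0.88 with an SD of 0.04. The other, A_23_P6263, was well above background on replicates 1 and 4 only. These probes lie 44.6 kb apart and are annotated to different transcripts, A_33_P3278200 to ENST00000495892 and A_23_P6263 to NM_002463. MX2 was thus detected by the probe of ENST00000495892 alone. The spread of MX2 thus came from the dimmer probe. RSAD2, which encodes viperin, a radical SAM enzyme that makes a chain-terminating nucleotide, was not detected: both probes had signals at or below 0 on all 4 arrays, between -4.24 and -0.18 units.

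All 4 genes of the ISG15 and ubiquitin system were detected. ISG15, the ubiquitin-like protein itself, lay at 8.26, 8.22, 8.54 and 8.28 (8.33 ± 0.15). USP18, the protease that removes ISG15 and dampens receptor signalling, lay at 2.12, 2.39, 2.20 and 2.06 (2.19 ± 0.15) and was highest on replicate 2. HERC5, the main ligase for ISG15, lay at 1.77, 2.06, 2.28 and 1.78 (1.97 ± 0.25). The HERC5 probe is printed as 10 spots on each array, so the error within an array could be measured. Its spots had an SD of 0.23 to 0.26 on the log2 scale within an array, which is an error of 0.07 to 0.08 for their mean, against an SD of 0.25 between arrays. For a single spot of HERC5 the SD within an array was thus about as large as that between arrays. Every other probe of the group is printed as 1 spot per array, so its error within an array was not measured. TRIM25, the ubiquitin ligase known for its part in RIG-I activation, lay at 7.15, 7.39, 7.64 and 7.32 (7.37 ± 0.20).

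Of the other effectors, 4 of 6 were detected. IFI6, a mitochondrial and endoplasmic reticulum protein, lay at 4.82, 4.69, 5.32 and 4.85 (4.92 ± 0.27) and IFI27, a member of the same family, at 1.46, 1.45, 1.85 and 1.31 (1.52 ± 0.23). IFI35, a leucine zipper protein, lay at 3.14, 3.26, 2.68 and 2.83 (2.98 ± 0.27) and was lowest on replicate 3, as IRF1 was. SP100, a component of nuclear PML bodies, lay at 2.89, 3.00, 3.40 and 2.80 (3.02 ± 0.26). Its 3 probes were all detected but did not order the arrays alike. A_23_P349928 and A_33_P3228325 were highest on replicate 3, at 8.17 and 3.40. A_24_P385611 was lowest there, at 2.22, 2.41, 1.79 and 1.91 on the 4 arrays. IFI44 and IFI44L, adjacent genes on chromosome 1 whose probes lie 20.9 kb apart at most (79107590 to 79128538), were not detected. IFI44 gave signals of 4.84 to 15.3 units, all below the dimmest probe called well above background, and IFI44L had a positive signal on replicate 4 alone.

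The spread between the arrays is given by role. The median SD was 0.23 over the 6 sensors and adaptors, 0.15 over the 5 transcription factors and 0.25 over the 22 detected effectors. Over all 33 detected genes it was 0.25, with a range of 0.12 to 0.38, against 0.21 over all 19689 detected genes. The study set its cut-off of 1.4-fold on the ratio between an aneuploid line and its diploid line. Here the same fold was set on the highest over the lowest of 4 arrays of 1 group, which is another measure. It was exceeded in 22 of the 33 genes (66.7%), against 45.6% of all detected genes. By role this held for 3 of 6 sensors and adaptors, 2 of 5 transcription factors and 17 of 22 effectors. The difference between the roles was not tested. Without replicate 3 the count fell to 4 of 33, against 21.6% of all detected genes. Starting from the processed signal of the software, with the 75th percentile of each array as its centre, it was 13, against 38.1% of all detected genes, and 4 after normexp background correction and quantile normalization, against 14.0%.

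**Figure D3:**
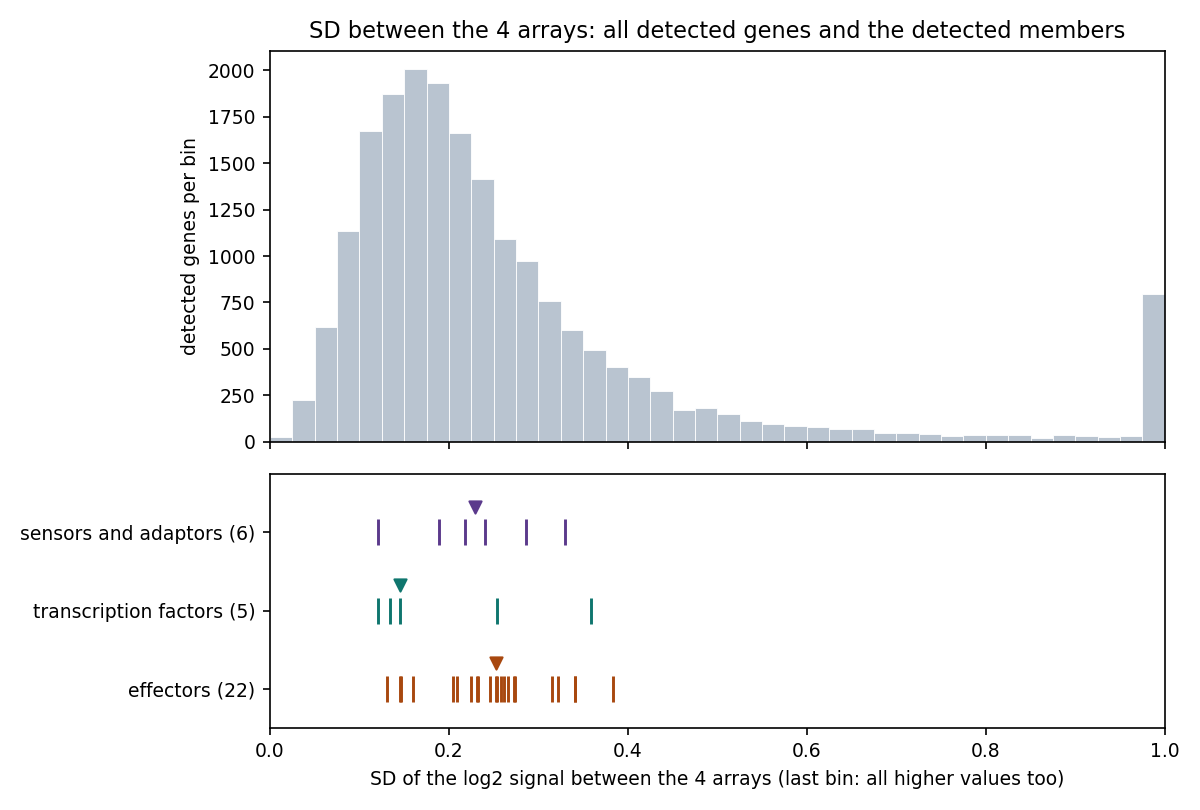
Upper panel: number of detected genes (y axis) by the SD of their log2 signal between the 4 arrays (x axis, the last bin holding all higher values). Lower panel: the SD of each of the 33 detected genes of the group as a line, by role, with the median as a triangle. The triangles lie at 0.23 for sensors and adaptors, 0.15 for transcription factors and 0.25 for effectors.

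In the group, replicate 3 was more often the highest array and replicate 4 the lowest than among all detected genes. This was not particular to the group. Of the 35 detected pathway genes outside it, described below, 24 were highest on replicate 3 and 15 lowest on replicate 4. The order of all 4 arrays was not compared between genes. Replicate 3 was the highest array in 23 of the 33 detected genes (69.7%), against 48.4% of all detected genes, and replicate 4 the lowest in 18 (54.5%), against 34.8%. Replicate 4 was the highest in none of the 33, against 6.18% of all detected genes. Replicate 3 was the lowest in IRF1, OAS3, MX2 and IFI35 (12.1%), against 23.1% of all detected genes. By detected probes alone it was the lowest in 2 of the 33, without OAS3 and MX2. The share over all genes was not computed for that setting. The mean over the 33 genes deviated from its 4-array mean by -0.08, 0.02, 0.21 and -0.16 on replicates 1 to 4, an SD of 0.16 (n = 4). The mean over all detected genes deviated by -0.02, 0.04, 0.06 and -0.08, an SD of 0.07. By role, the mean on replicate 3 deviated by 0.24 for sensors and adaptors, 0.13 for transcription factors and 0.22 for effectors. After normexp background correction and quantile normalization the deviation of the 33 genes on replicate 3 was 0.09, and replicate 3 was the highest in 19 of 33 (57.6%), against 36.6% of all detected genes. With the processed signal it was 0.13, and replicate 3 was the highest in 22 (66.7%), against 39.7%. Probe by probe, replicate 3 was the highest in 32 of the 47 detected probes of the group (68.1%), against 50.6% of all detected probes, and the lowest in 5 (10.6%), against 23.4%. In 3 of the 33 genes (9.09%) replicate 3 stood clear of the other arrays by Dixon's ratio, which marked 1 array in 7.94% of all detected genes. Whether the array or the cells of replicate 3 differed was not tested.

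**Figure D4:**
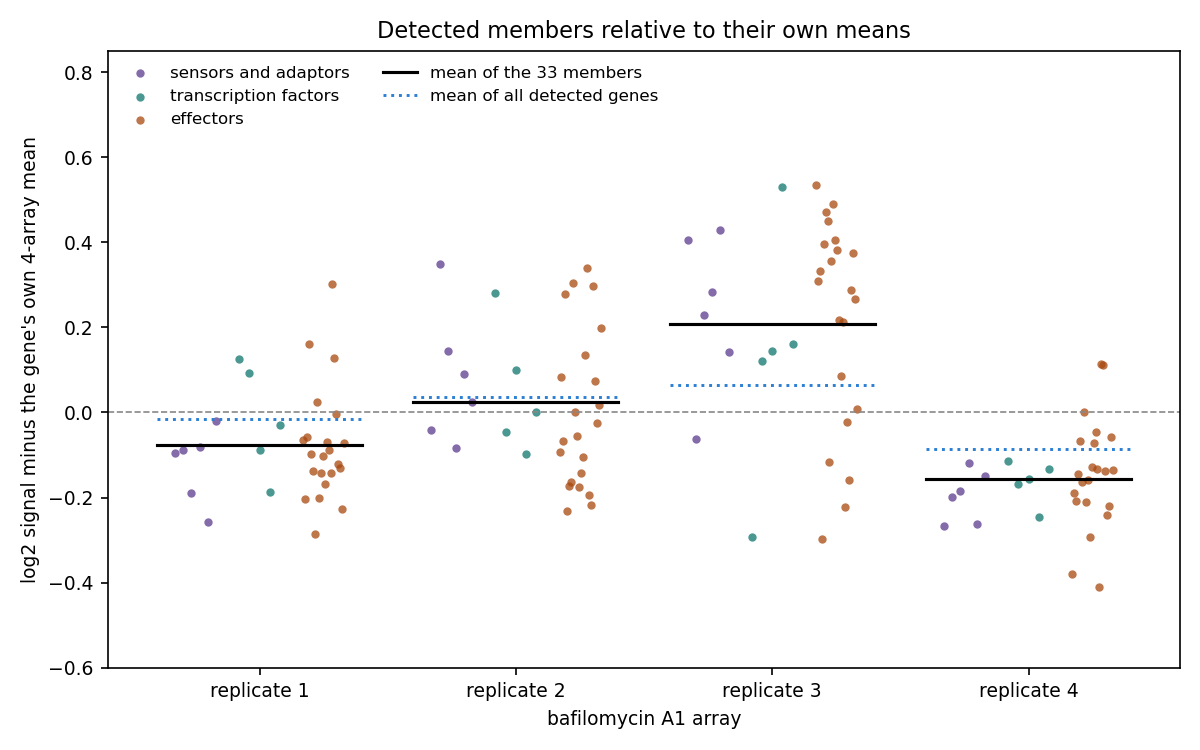
Log2 signal of the 33 detected genes minus the gene's own 4-array mean (y axis) on each bafilomycin A1 array (x axis), coloured by role. The black line is the mean of the 33 genes, at -0.08, 0.02, 0.21 and -0.16 on replicates 1 to 4, and the dotted line that of all detected genes.

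The genes around this group in the pathway were detected less evenly by class. Of 8 interferon genes found by name, 2 were detected, the single-probe genes IFNE, at -0.60, -0.87, -0.39 and -0.69, and IFNL2, at 0.26, -0.18, 0.29 and 0.21. Both lay close to the limit of detection. Relative to the dimmest probe called well above background, the signal was 1.76 to 2.80 times for IFNE and 2.88 to 4.48 times for IFNL2. IFNA2, IFNB1, IFNG, IFNK, IFNL1 and IFNL3 were well above background on no array, and IFNA1 was not found by name. All 6 receptor chains were detected (IFNAR1, IFNAR2, IFNGR1, IFNGR2, IFNLR1 and IL10RB), as were JAK1, JAK2 and TYK2. TYK2 lay at 2.45, 2.82, 1.25 and 1.99 (2.13 ± 0.68) and was lowest on replicate 3.

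Of 13 further sensors and adaptors, 6 were detected (DHX58, TLR9, MYD88, TICAM1, TRAF3 and TBK1). CGAS, the DNA sensor upstream of STING, was well above background on no array, and neither were IFI16, AIM2, ZBP1, TLR7 and TLR8, while IKBKE was so on replicate 2 alone. IRF5 was detected, IRF2 was well above background on replicate 3 alone, and IRF8 on no array. Of 21 further interferon-induced genes, 14 were detected, and GBP1, CXCL10, CXCL11, CCL5, XAF1 and TRIM22 were well above background on no array. The inhibitors SOCS1 and SOCS3 were both detected. In all, 35 of the 57 genes of this list were detected (61.4%), read beside the same 54.2% of all gene names.

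The labelled cell type was checked by markers of intestinal epithelium, of which EPCAM, KRT8, KRT18, KRT19, CDH1 and CDX1 were detected and VIL1 was well above background on no array. Among markers of blood cells, endothelium and fibroblasts, CD3E, CD14, CDH5, COL1A1 and, by 1 of its 5 probes, PTPRC were detected. DCN was well above background on 1 array, by 1 of its 2 probes, and PECAM1, COL1A2 and COL3A1 on none. The part of these markers in the levels of the 37 genes was not tested.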

How the data were processed

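Total RNA of 4 samples of 1 group was measured on Agilent 60-mer arrays. Per the file headers, the authors' scanner files were written by Agilent Feature Extraction 10.7.3.1 on the GRCh37 build; the deposited intensity values are background-subtracted, on a linear scale and not normalized between arrays. Deposited flags (another unit) mark outlying spots and spots well above background. Here control spots, spots flagged as outliers and values at or below 0 were dropped, spots of a probe were averaged, log2 values were centred on the array median and the median over probes was taken, as the study's methods describe for centring and probes. A probe needed the well-above-background flag on over 50% of its spots. All 37 members are named, with values for each detected one. Some genes of the pathway and marker lists are not reported here by name. The members and lists were chosen with earlier results of these data known. With 1 group no comparison between groups was made. Dixon's ratio was used to find arrays apart from the rest, and the number of arrays limits the precision. Alternatives used limma 3.58.1 in R 4.3.3; the statistics were tested on simulated data. Promoters are from RefSeq (GRCh38.p14), and their coordinates are not those of the probes.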

Additional observations from a re-analysis of the deposited data

Results flagged for a closer look

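Dixon's ratio, the gap of an extreme array over the whole range, exceeded its critical value for 4 arrays in 3 of the 33 detected genes (9.09%), against 7.94% of all detected genes, where chance gives about 5%. The ratio was 0.945 for IFIT1, 0.907 for MAVS and 0.872 for IFITM2, and in each the array apart was replicate 3, the highest. IFIT1 lay at 2.70 there against 2.06 to 2.09 on the others, MAVS at 5.00 against 4.60 to 4.64, and IFITM2 at 9.01 against 8.43 to 8.50. The IFITM2 spot on replicate 3 also had an outlying local background. The MAVS value, a median of 7 probes, was that of A_33_P3244026 on every array. Among the MAVS probes, only A_33_P3244026 (0.907) and A_33_P3244021 (0.848) exceeded the critical value, and the others had ratios of 0.269 to 0.574. For the mean over the 33 genes the ratio was 0.502.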

How the results depend on the processing

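The number of detected genes was 33 in all with outlying spots kept and with any 1 array left out, 29 when every probe of a gene had to be well above background, which lost IFIT2, OAS2, OAS3 and MX2, and 30 to 35 under the settings given above. All 6 sensors and adaptors and all 5 transcription factors were detected under each of these settings, and 18 to 24 effectors. Genes well above background on no array numbered 2 to 4, the 4 being reached without replicate 2, when OAS1 joined them, and by the rule on every probe.

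Measures of spread depended on scaling and on replicate 3. The count of detected genes spanning more than 1.4-fold was 13 with the processed signal, 4 after quantile normalization following normexp, and 4 to 20 with 1 array left out, the 4 without replicate 3. The median SD was 0.129 after quantile normalization and 0.133 to 0.275 with 1 array left out, the lowest again without replicate 3. The SD of the mean over the genes was 0.209 when the median over the genes replaced the mean, 0.0876 with the processed signal, 0.0598 after quantile normalization, and 0.0908 to 0.191 with 1 array left out, the lowest without replicate 3. The cause was not tested. Using detected probes alone or probes measured on every array, the array median over all probes and no detection filter left these 3 measures within 1.5 times or within the spread of the values with 1 array left out.

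No paired analysis was possible because only the treated group has values here. The slide was not used as a block, since the 4 arrays share 1 slide. The dimmest signals called well above background, 19.2 to 22.3 units, set the limit of detection, and a gene below them is not shown to be unexpressed.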

Other observations

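Of the 8 genes with at least 2 probes well above background on all 4 arrays, all probes named the same highest array in 5 (DDX58, EIF2AK2, IRF3, IFITM1 and BST2) and not in MAVS, OAS2 and SP100. The 2 probes of DDX58, both of transcript NM_014314 and 330 bases apart on chromosome 9, deviated by different amounts. A_33_P3418170 spanned 1.77-fold and A_33_P3372910 1.47-fold.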
